A study of Sus scrofa with 15 samples.

Results

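Krüppel-like factors (KLFs) are transcription factors that bind GC-rich sites and CACCC boxes in promoters through zinc fingers near their C terminus. The RNA of 10 of them, *KLF2*, *KLF3*, *KLF4*, *KLF5*, *KLF6*, *KLF9*, *KLF10*, *KLF11*, *KLF13* and *KLF17*, was followed in 15 RNA-seq libraries of pig donor cells and cloned embryos. The members were taken by gene symbol from a table of 28224 known genes, which held 43294 features with the assembled transcripts. The entry of *KLF17* itself was 0 in all 15 libraries. Its reads stood on 1 assembled transcript without gene name at the same locus, and the values of *KLF17* given here are the sum of the entry and this transcript.

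Each of the 5 groups had 3 libraries. PFF are primary fetal fibroblasts at passages 2 to 5, the donor cells of the cloning. SCNT4c and SCNT8c are embryos made by somatic cell nuclear transfer (SCNT), a transfer of a fibroblast nucleus into an enucleated oocyte, and were sampled at the 4-cell and 8-cell stages. SCNT4c-KG are 4-cell SCNT embryos injected with mRNA of *KDM4A*, which removes the repressive histone mark H3K9me3, at 5 h after activation, and kept for 0 to 48 h in GSK126, a drug against EZH2, the enzyme that writes H3K27me3. SCNT4c-TDG are 4-cell SCNT embryos made from puromycin-selected PFF that carried a doxycycline-inducible vector for *TDG*, a thymine DNA glycosylase that takes part in DNA demethylation, and were cultured with doxycycline from 40 to 72 h. Only SCNT4c-TDG had selected donor cells and doxycycline, so those steps and *TDG* cannot be told apart, nor can the injection, *KDM4A* and GSK126 in SCNT4c-KG. Each embryo library was a pool of 30 embryos. In such pools, fewer expressing cells and less RNA per cell cannot be told apart. Nothing in the labels gives separate cultures or collections behind the libraries of a group, so p-values measure only the spread between these libraries.

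Values are the deposited normalized values, which are reads of a feature divided by a factor for its library. A read was worth 0.765 to 1.63 units, and libraries held 12354649 to 22868038 recovered reads, with the lowest depths in SCNT4c-KG (up to 15390472). *KDM4A* stood at 1429 to 1476 in SCNT4c-KG and at 134 to 313 in SCNT4c, and *TDG* at 49857 to 59944 in SCNT4c-TDG against 939 to 2541 in SCNT4c. Neither gene was raised in its own group alone, since *KDM4A* was also higher in SCNT4c-TDG (555 to 918, log2 fold change 2.08) and *TDG* in SCNT4c-KG (3886 to 4738, log2 fold change 1.46). The 12 fibroblast markers looked for took 12.4% to 13.0% of the total value in PFF, where *PDGFRA* alone was listed at 0, and at most 0.0274% in the embryos. The summed value of 11 maternal oocyte transcripts was 15828 to 101663 in the embryos and 11.5 to 23.8 in PFF, where 9 of them, including *ZP3* and *ZP4*, were listed at 0. The mitochondrial share of reads was 8.26% to 9.42% in SCNT4c-TDG and at most 2.47% in the other groups.

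KLF proteins share their DNA-binding fingers and differ in what lies before them. *KLF2*, *KLF4* and *KLF5* encode activators that sustain pluripotency in mouse embryonic stem cells, and *KLF6* encodes a widely expressed relative. *KLF9*, *KLF10*, *KLF11* and *KLF13* encode factors that recruit the SIN3A corepressor, and *KLF3* encodes a repressor that binds CtBP. *KLF17* encodes a divergent family member known from germ cells and the early human embryo.

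The promoters of *KLF4* and *KLF17* are shown because they are among the genes called higher in both treated 4-cell groups. Sequences are RefSeq Sscrofa11.1, read 5′ to 3′ on the strand of the gene up to the base before the annotated start, with each CACCC box (CACCC, or GGGTG on the other strand) in capitals. *KLF4* is shown from chr1:248609575-248609824 (minus strand). For *KLF17*, the stretch chr6:167188560-167188668 (minus strand) is shown, the 109 bases of the window that the assembled locus does not reach.
KLF4: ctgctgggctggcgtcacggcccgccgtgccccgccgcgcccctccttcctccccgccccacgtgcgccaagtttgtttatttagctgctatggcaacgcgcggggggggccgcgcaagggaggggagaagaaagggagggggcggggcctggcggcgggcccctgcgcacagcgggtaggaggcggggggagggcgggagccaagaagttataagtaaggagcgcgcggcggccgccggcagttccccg
KLF17: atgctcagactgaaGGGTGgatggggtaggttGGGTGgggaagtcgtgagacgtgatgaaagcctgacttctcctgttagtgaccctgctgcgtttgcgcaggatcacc
The *KLF4* window held no CACCC box, and the 250-base window of *KLF17* held 5, of which 2 lie in the stretch shown. Windows of 9 members were searched. Of the others, *KLF3* held 6, *KLF13* held 2, *KLF11* held 1, and *KLF2*, *KLF5*, *KLF6* and *KLF9* held 0. Over 19531 windows of the same length before RefSeq genes, 53.9% held at least 1 CACCC box. The GC box (GGGCGG, either strand) was present in all 9 windows, from 1 match in *KLF9* and *KLF17* to 6 in *KLF3* and *KLF5*, against 45.9% of all windows. The GC box of *KLF17*, at -74, lies in the part that the assembled locus reaches, and the stretch shown holds none. The assembled locus of *KLF13* also reaches into its window. TATAAA, on either strand, was in none of the 9 and in 9.76% of all windows. *KLF17* also held the fewest CpG dinucleotides of the 9, 16 against 23 to 42 in the others and a median of 12 over all windows. A match is a description of the letters and not a bound site.

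**Figure D1:**
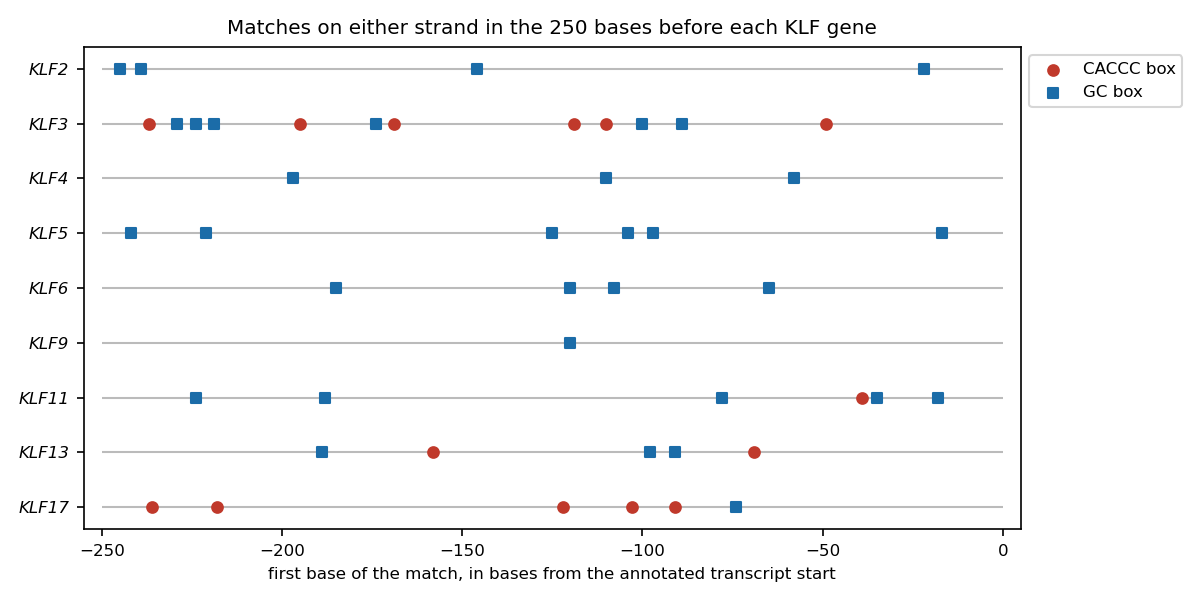
Position of each CACCC box (red circles) and GC box (blue squares), on either strand, in the 250 bases before the annotated start of 9 KLF genes. The x axis gives the first base of the match in bases from the start. Each of the 9 windows holds a GC box, and CACCC boxes are in the windows of *KLF3*, *KLF11*, *KLF13* and *KLF17*.

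The 10 genes lie apart on 8 chromosomes of Sscrofa11.1. *KLF17* runs on chromosome 6 from 167176834 to 167188418 with 3 exons, and *KLF4* on chromosome 1 from 248604817 to 248609574, where its 2 RefSeq transcripts have 4 and 5 exons. *KLF6* runs on chromosome 10 from 66488445 to 66497830 with 5 exons. Reads that overlap another gene of a locus could not be told apart where strand was not used, and the strand setting is not given in the sources used here. This bears on *KLF3*, *KLF11* and *KLF13*, which each share a locus with another known gene.

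PFF were set against SCNT4c, the embryos made from them. Of the 9 members with enough reads for a test, 7 were higher in PFF than in SCNT4c, 1 was lower and 1 was not called, with limma and Benjamini-Hochberg adjustment over all features. The background is wide here, since 78.2% of all features tested were called in this comparison (38.5% higher in PFF and 39.7% lower, or 7421 and 7662 features). With edgeR the split was 5864 higher and 8933 lower, and the median of all features was -0.96. The members had a median log2 fold change of 4.11, and all features one of -0.07. Ranges of the 3 libraries did not overlap for 9 of the 9, 7 above and 2 below SCNT4c, against 84.5% of all features (42.1% above and 42.4% below).

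*KLF6* had the highest level per length of the 9 members other than *KLF17*, at 2341 ± 87.6 (SD, n = 3) per exonic kilobase in PFF. Its normalized values were 9053, 9716 and 9196 in PFF and 828, 495 and 144 in SCNT4c. All 3 PFF libraries lay more than 10 times above each SCNT4c library (log2 fold change 4.57, SE 0.61, limma adjusted p = 0.000587). *KLF13*, known for its part in lymphocytes and the heart, was listed at 188, 166 and 149 in PFF and at 0 in all 12 embryo libraries. An assembled transcript at its locus was 97.7, 131 and 95.3 in PFF and at most 1.42 in any embryo library. The other known gene at the locus, *LOC102164789*, was 0 to 1.27 in PFF, 11.0 to 19.2 in SCNT4c and up to 49.0 in SCNT4c-KG, and whether it took reads of *KLF13* was not tested. Against a floor of 3 reads per library, *KLF13* was at least 67.2-fold higher in PFF than in SCNT4c (limma adjusted p = 2.3e-06).

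*KLF4*, a factor of induced pluripotency that fibroblasts also express, stood at 222, 220.3 and 250.3 in PFF and at 0 in each SCNT4c library, at least 92.7-fold higher in PFF (limma adjusted p = 1.6e-06). *KLF2*, *KLF9* and *KLF10* were also higher in PFF, with log2 fold changes of 4.40, 2.45 and 4.11. *KLF11* was higher by 1.31 on the log2 scale (limma adjusted p = 0.0122), but edgeR and DESeq2 on the recovered reads did not call *KLF9* or *KLF11*. The limma call of *KLF9* was also lost without PFF replicate 3 or SCNT4c library b or c (adjusted p 0.0516 to 0.0604). That of *KLF11* was lost without PFF replicate 2 (0.0566), with the same total (0.104) and with all 5 groups in the fit (0.159). With a pseudocount of 10, *KLF11* was under the fold limit. *KLF5* went the other way, with 52.5, 56.0 and 67.9 in PFF and 160.1, 70.8 and 131 in SCNT4c. The groups of *KLF5* did not overlap, and its log2 fold change of -0.95 (limma adjusted p = 0.0461) was under the fold limit, while edgeR and DESeq2 gave -1.77 and -1.82 and called it.

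*KLF17* was 0 in all PFF libraries and 346, 243 and 150.3 in SCNT4c, at least 66.9-fold higher in the embryos. It was the member of the 10 called lower in PFF (limma adjusted p = 6.4e-06).

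**Figure D2:**
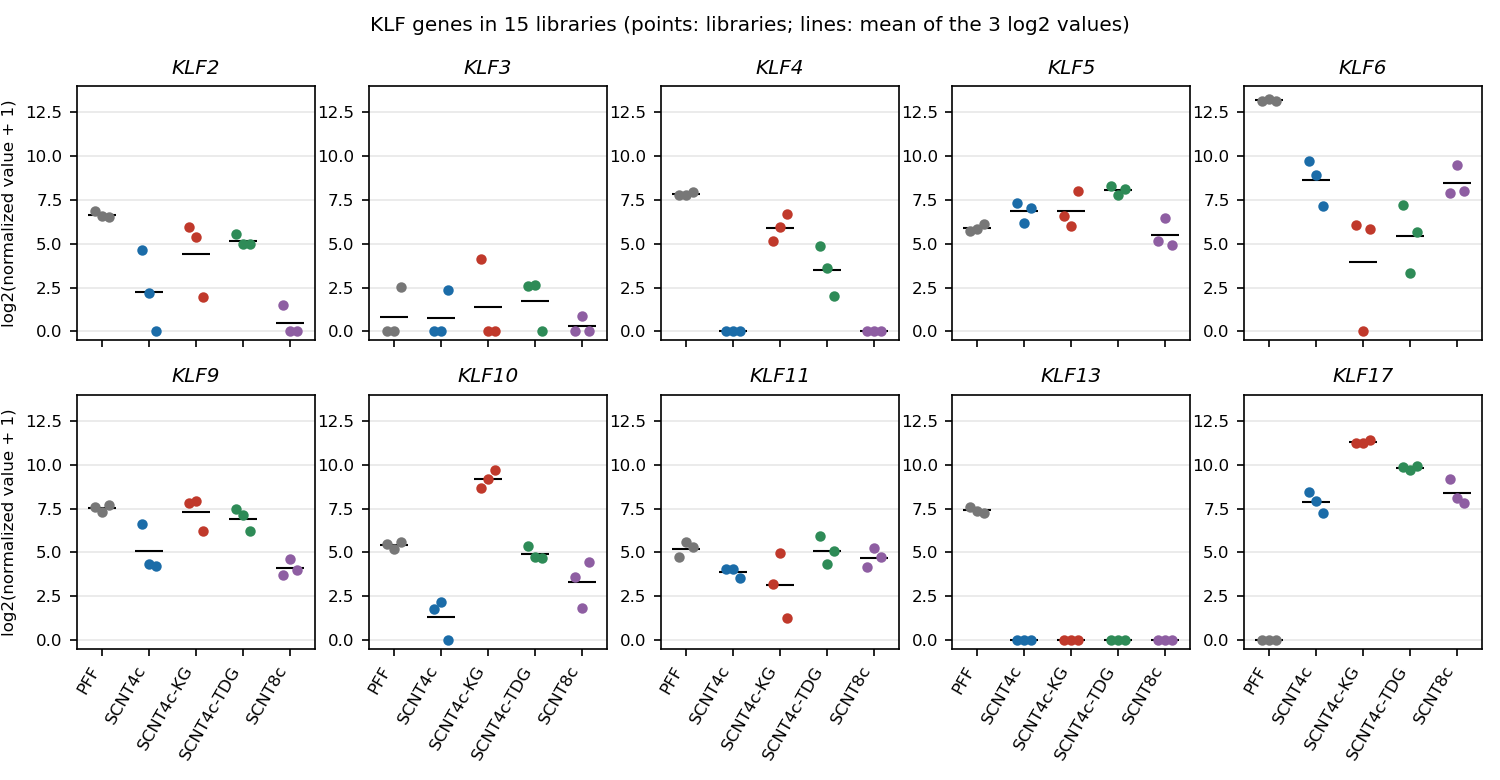
Normalized value of each KLF gene as log2(value + 1) on the y axis in the 15 libraries of PFF, SCNT4c, SCNT4c-KG, SCNT4c-TDG and SCNT8c. Points are libraries and lines are the mean of the 3 log2 values of a group. *KLF6* and *KLF13* are highest in PFF, and *KLF10* and *KLF17* in SCNT4c-KG.

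Members were called in both directions in SCNT4c-KG, downward in *KLF6* alone. In SCNT4c-KG against SCNT4c, 8 of the 10 members had enough reads for a test, of which 4 were higher and 1 lower, against 37.2% of all features called (17.6% higher and 19.6% lower). *KLF3* was below the minimum mean of 10, and *KLF13* was 0 in all embryos. The 8 had a median log2 fold change of 2.21 beside -0.30 for all features, and 4 of them did not overlap between groups, 3 above and 1 below SCNT4c, against 53.9% of all features (24.3% above and 29.6% below). A member low in most groups passed the minimum through the group where it is high, so these shares describe the tested members only.

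*KLF10*, which encodes a TGF-beta-inducible early-response repressor, had the highest log2(value + 1) difference of the members, although *KLF4*, at 0 in SCNT4c, can be given only a lower bound. *KLF10* had 2.37, 3.50 and 0 in the SCNT4c libraries, and 403, 576 and 835 after KDM4A and GSK126. The groups were far apart, and the SCNT4c level rested on 7 reads in all, against 1287 in SCNT4c-KG. This gave a log2 fold change of 7.87 (SE 0.85, limma adjusted p = 6.4e-06), which lay between 5.63 and 9.24 over the alternatives. Per exonic kilobase, *KLF10* reached 210.2 ± 75.5 (SD, n = 3) in SCNT4c-KG, near *KLF9* at 247 ± 127 in the same libraries, and stood at 14.6 ± 1.97 in PFF.

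The levels of *KLF4* were 34.3, 60.9 and 101 in SCNT4c-KG, from 21, 48 and 71 reads. All 3 stood above the zeros of SCNT4c and below the 220.3 to 250.3 of PFF. *KLF4* was at least 26.3-fold higher than in SCNT4c (limma adjusted p = 0.000327), and an assembled transcript at its locus was 0 in all 15 libraries.

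*KLF17* stood at 2411, 2384.5 and 2693 in SCNT4c-KG. These are the highest values of *KLF17* in any library, and their spread was small (SD 171 on a mean of 2496), while SCNT4c ranged more than 2-fold. The fold of the means was 10.1 (log2 fold change 3.41, SE 0.39, limma adjusted p = 1.3e-05).

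*KLF9*, a factor induced by glucocorticoid and thyroid hormones, had 98.6, 19.2 and 17.4 in the SCNT4c libraries, while those of SCNT4c-KG had 229, 240 and 74.1. The groups overlapped, since the highest SCNT4c library lay above the lowest SCNT4c-KG library. The log2 fold change was 2.27 (SE 0.74, limma adjusted p = 0.0261). The call was lost without SCNT4c library b or c or without SCNT4c-KG replicate 1 or 2, with adjusted p up to 0.098.

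*KLF6* fell in SCNT4c-KG. Its values were 65.3, 0 and 55.6, all below the 144 to 828 of SCNT4c. The log2 fold change was -4.65 (SE 1.33, limma adjusted p = 0.0131). Without SCNT4c library a (adjusted p = 0.0584) or SCNT4c-KG replicate 2, the library at 0 (log2 fold change -2.67, adjusted p = 0.0536), it was not called. The fibroblast markers summed to 2363 to 3502 in SCNT4c-KG and 3719 to 4869 in SCNT4c, with *PDGFRA* at 0 in every group. Of 7 tested, *COL1A2*, *COL3A1* and *DCN* were lower (log2 fold changes -2.44, -2.21 and -5.71), and *THY1* and *VIM* were higher (2.76 and 1.59). Their part in the *KLF6* values was not tested.

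The other 3 tested members were not called. *KLF2* had 23.7, 3.50 and 0 in the controls, and 60.4, 40.6 and 2.85 with treatment, with 2 of the 3 treated libraries above all controls (log2 fold change 2.16, 95% confidence interval -0.54 to 4.85, limma adjusted p = 0.188). *KLF5* was 94.7, 64.7 and 255 in SCNT4c-KG, around the SCNT4c values, with a log2 fold change of 0.03 (95% confidence interval -1.25 to 1.30) that turned to -0.06 when every library was scaled to the same total. *KLF11*, a close relative of *KLF10*, stayed at 8.17, 30.5 and 1.42 beside 15.8, 15.7 and 10.8 in SCNT4c (log2 fold change -0.75, 95% confidence interval -2.72 to 1.23, limma adjusted p = 0.547), and edgeR and DESeq2 gave 0.07 and 0.10.

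*KLF4* and *KLF10* belong with the genes that many cells induce within minutes of stimulation. Of 11 early-response and stress genes in the table, 8 were tested, and 3 were higher in SCNT4c-KG and none lower: *DUSP1*, *FOS* and *GADD45B*, with log2 fold changes of 1.67, 2.13 and 1.75. Of all features in this comparison, 17.6% were higher and 19.6% lower. Their summed value was 4310 to 8505 in SCNT4c-KG, where each was read in at least 1 library, and 1721 to 4760 in SCNT4c, where *DDIT3*, *IER2* and *IER3* were at 0 in all libraries. The maternal oocyte transcripts summed to 33298 to 61289 in SCNT4c-KG and 77895 to 101663 in SCNT4c, most of it *ZP4*. Of 7 of them tested, 1 was higher, *ZP3* (log2 fold change 4.74), and 1 lower, *ZP4* (-1.14). The part of these genes in the KLF values was not tested.

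SCNT4c-TDG shared the calls upward in *KLF4*, *KLF10* and *KLF17*, and no other member was called. In SCNT4c-TDG against SCNT4c, 3 of 8 tested members were higher and 0 lower, against 33.3% of all features called (15.7% higher and 17.6% lower). The 8 had a median log2 fold change of 1.91 beside -0.26 for all features. Groups did not overlap for 6 of the 8, all above SCNT4c, against 58.4% of all features (25.2% above and 33.2% below). Both treated groups were set against the same SCNT4c libraries, so the shared calls are not independent.

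*KLF10* had 40.1, 26.1 and 24.5 in SCNT4c-TDG. Each library lay above SCNT4c and within or near the PFF range of 35.7 to 46.5 (log2 fold change 3.62, SE 0.85, limma adjusted p = 0.00421). The values of *KLF17* were 941, 828 and 961. They lay together, above the 346 of the highest SCNT4c library and below all of SCNT4c-KG, and the fold of the means over SCNT4c was 3.69 (log2 fold change 1.96, SE 0.39, limma adjusted p = 0.0015).

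*KLF4* was detected in all 3 SCNT4c-TDG libraries, at 28.4, 11.5 and 3.06. The lowest of these rested on 4 reads, and the group was at least 5.75-fold above SCNT4c (limma adjusted p = 0.0128). The call was lost without SCNT4c-TDG replicate 1, which had the highest value (adjusted p = 0.0817), and with a pseudocount of 10 (adjusted p = 0.069).

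*KLF5*, needed in the mouse for the first lineages of the blastocyst, was highest of all groups in SCNT4c-TDG, at 317, 216 and 279. Every SCNT4c-TDG library stood above every SCNT4c library, with a fold of the means of 2.24 (SE of the log2 fold change 0.60, limma adjusted p = 0.129). It was called by DESeq2 (adjusted p = 0.0463) and in a limma fit of these 2 groups alone (adjusted p = 0.0195). *KLF2* had 46.8, 30.7 and 30.6, again above all SCNT4c libraries (log2 fold change 2.92, 95% confidence interval 0.22 to 5.61, limma adjusted p = 0.0871). Without SCNT4c library a, the highest control, *KLF2* was called with a log2 fold change of 4.10 (adjusted p = 0.0311). It was also called with quantile normalization (limma adjusted p = 0.0243) and in the fit of these 2 groups alone (0.042).

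*KLF9*, at 176, 138 and 72.7, overlapped SCNT4c through the same library a (log2 fold change 1.87, 95% confidence interval 0.28 to 3.45, limma adjusted p = 0.0646), and it was called without that library (log2 fold change 2.66, adjusted p = 0.0141) and under 5 other settings, DESeq2 and quantile normalization among them (adjusted p 0.0237 to 0.0496). *KLF6* had 149, 9.21 and 50.5, of which 1 library lay in the SCNT4c range (log2 fold change -3.19, 95% confidence interval -6.03 to -0.35, limma adjusted p = 0.0774). The fibroblast markers summed to 1425 to 1819 in these libraries, with 0 of 7 tested higher and 3 lower than in SCNT4c, beside the 15.7% and 17.6% of all features given above. *KLF6* was called lower with a pseudocount of 10 (adjusted p = 0.0176) and in the fit of these 2 groups alone (0.0118). *KLF11*, at 60.2, 19.2 and 32.1, was above all SCNT4c libraries without a call (log2 fold change 1.21, 95% confidence interval -0.77 to 3.19, limma adjusted p = 0.33). In the fit of the 2 groups alone, 6 members were called, 5 higher and 1 lower, beside 8882 of 18647 features (3732 higher and 5150 lower). *KLF4*, called in the main fit, was below the minimum mean there and was not tested.

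Of the 8 early-response genes tested, 1 was higher in SCNT4c-TDG, *DUSP1*, and 1 lower, *EGR1*, with log2 fold changes of 1.41 and -1.86, beside 15.7% of all features higher and 17.6% lower. The summed value of the 11 listed was 3302 to 5249, with *IER3* at 0. The maternal oocyte transcripts summed to 15828 to 18470 in SCNT4c-TDG, below SCNT4c, with 0 of 7 tested higher and 3 lower beside the same shares, and the mitochondrial share was the one given above. The part of these in the KLF values was not tested.

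**Figure D3:**
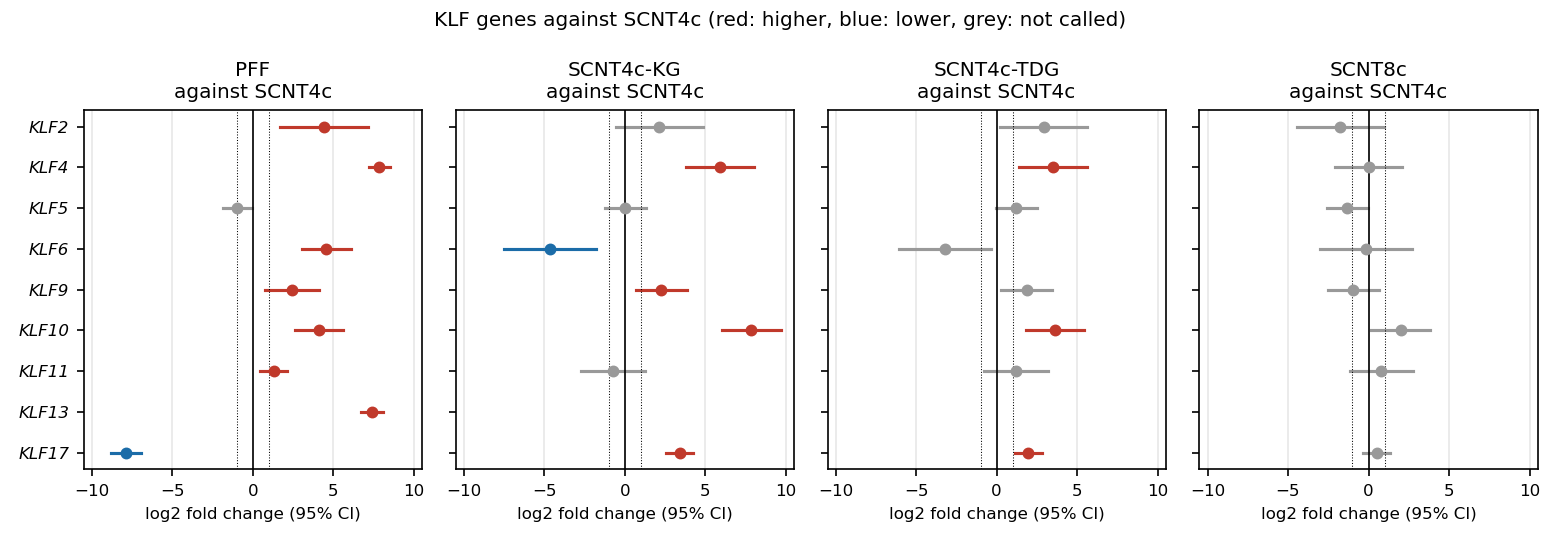
Log2 fold change of each tested KLF gene against SCNT4c on the x axis, for PFF, SCNT4c-KG, SCNT4c-TDG and SCNT8c. Points are limma estimates on log2(value + 1), bars are 95% confidence intervals, and dotted lines mark the 2-fold limit. *KLF4*, *KLF10* and *KLF17* are called higher in both treated groups, *KLF6* is called lower in SCNT4c-KG, and no gene is called in SCNT8c.

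Between the untreated stages no member was called. In SCNT8c against SCNT4c, 0 of 8 tested members changed with limma, against 5.79% of all features (2.62% higher and 3.16% lower). That background rests on single libraries, with 1096 features called in all, 6133 without SCNT8c replicate 3 and 31 to 234 without any other of the 6 libraries, while 0 members were called in each case. At an unadjusted p under 0.05 there were 2, *KLF5* and *KLF10*, while edgeR called 0 and DESeq2 called 1, *KLF10*, beside 842 and 2733 of 18942 features. A limma fit of these 2 groups alone called 0 members and 0 of 18184 features, of which 3582 had an unadjusted p under 0.05. *KLF2*, *KLF4* and *KLF10* were below the minimum mean in that fit and could not be called. The 8 include *KLF4*, which was at 0 in both groups and entered with a difference of 0, so their median log2 fold change of -0.07, beside -0.31 for all features, rests in part on it. Of the 8, 1 did not overlap, *KLF11*, which lay above SCNT4c, against 23.5% of all features (9.24% above and 14.3% below).

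*KLF10* was 11.2, 2.49 and 21.1 in SCNT8c, partly above SCNT4c (log2 fold change 1.99, 95% confidence interval 0.18 to 3.79, limma adjusted p = 0.138). *KLF5* was 34.5, 88.1 and 29.6, partly below it (log2 fold change -1.33, 95% confidence interval -2.61 to -0.05, limma adjusted p = 0.158). *KLF17* was 579.7, 278 and 223, with a log2 fold change of 0.50 and an interval of -0.34 to 1.34, so a rise of the size seen in either treated group lay outside the interval. *KLF6*, at 233, 729.9 and 259.9, overlapped SCNT4c (log2 fold change -0.14, 95% confidence interval -2.98 to 2.70).

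*KLF4* was listed at 0 in all 3 SCNT8c libraries, as in SCNT4c, and no fold is given. *KLF2* was nearly absent there, with 2 reads in 1 library and 0 in the others. *KLF9* stood at 12.1, 24.1 and 14.8 and *KLF11* at 16.8, 36.6 and 25.4, with log2 fold changes of -0.94 and 0.80 and limma adjusted p = 0.413 and 0.587.

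A direct comparison of the treatments separated *KLF10* and *KLF17*. In SCNT4c-TDG against SCNT4c-KG, 2 of 8 tested members were called and both were lower, against 16.2% of all features called (7.07% higher and 9.13% lower). The members had a median log2 fold change of 0.18 beside -0.02 for all features, and 3 of 8 did not overlap, all below SCNT4c-KG, against 44.4% of all features (19.8% above and 24.6% below). *KLF10* was 20.0-fold lower by the means (log2 fold change -4.25, SE 0.85, limma adjusted p = 0.00336), with the highest SCNT4c-TDG library at 40.1 and the lowest SCNT4c-KG library at 403. *KLF17* was 2.74-fold lower (log2 fold change -1.46, SE 0.39, limma adjusted p = 0.0201), with 961 against 2384.5 at the nearest.

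The call of *KLF17* was lost whenever any of the 6 libraries was left out (adjusted p 0.0565 to 0.0807) and when libraries were scaled to the same total (log2 fold change -1.09, adjusted p = 0.0839), where the median of all features moved to 0.32. *KLF4* did not overlap, 3.06 to 28.4 against 34.3 to 101, and was 4.57-fold lower in SCNT4c-TDG without a call (log2 fold change -2.41, 95% confidence interval -4.51 to -0.30, limma adjusted p = 0.112). It was called in the fit of these 2 groups alone (adjusted p = 0.0409). The remaining 5 tested members overlapped, with log2 fold changes from -0.40 in *KLF9* to 1.96 in *KLF11*.

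The treated 4-cell embryos were also set against the 8-cell stage. In SCNT4c-KG against SCNT8c, 6 of 8 were called, 5 higher and 1 lower, against 28.2% of all features (16.4% higher and 11.8% lower), with a median log2 fold change of 3.06 beside 0.03. Of the 8, 6 did not overlap, 5 above and 1 below, against 36.7% of all features (21.7% above and 15% below). The higher members were *KLF2*, *KLF4*, *KLF9*, *KLF10* and *KLF17*, of which *KLF4*, at 0 in SCNT8c, was at least 23.2-fold higher. The other 4 had log2 fold changes of 3.92, 3.21, 5.89 and 2.91, and *KLF6* was lower by 4.51 on the log2 scale (log2 fold change -4.51, limma adjusted p = 0.0195). The value of *KLF2* rested on 2 reads in SCNT8c, and its call (limma adjusted p = 0.0304) was lost without SCNT4c-KG replicate 1 or 2 or SCNT8c replicate 2 or 3, with adjusted p of 0.0534 to 0.12. That of *KLF6* was lost without SCNT4c-KG replicate 2, the library at 0 (log2 fold change -2.53, adjusted p = 0.0791), or SCNT8c replicate 2 (adjusted p = 0.0545). In a limma fit of these 2 groups alone, *KLF2* (adjusted p = 0.0873) and *KLF6* (0.054) were not called. Without a minimum mean, *KLF2* was not called either (limma adjusted p = 0.058).

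In SCNT4c-TDG against SCNT8c, 5 of 8 were called, all higher, against 24.7% of all features (13.7% higher and 11.0% lower), with a median log2 fold change of 2.09 beside 0.09, or 1.99 with *KLF4* at its bound. Of the 8, 7 did not overlap, 6 above and 1 below, against 40.6% of all features (22.2% above and 18.4% below). They were *KLF2*, *KLF4*, *KLF5*, *KLF9* and *KLF17*, of which *KLF4* was at least 5.08-fold higher. The other 4 had log2 fold changes of 4.68, 2.54, 2.81 and 1.46. *KLF5* was 5.33-fold higher by the means (limma adjusted p = 0.00586), with 216 as the lowest SCNT4c-TDG and 88.1 as the highest SCNT8c library. Without SCNT4c-TDG replicate 1, 2 of the 8 and 3285 of 18940 features were called, beside 4681 of 18942 with it, and *KLF2*, *KLF4* and *KLF9* had adjusted p of 0.0537, 0.101 and 0.0604. The call of *KLF4* was also lost without SCNT4c-TDG replicate 2 (adjusted p = 0.0578), with a pseudocount of 10 (0.0886) and with quantile normalization (0.0771). *KLF10*, at 24.5 to 40.1 against 2.49 to 21.1, did not overlap but was not called (log2 fold change 1.64, 95% confidence interval -0.17 to 3.44, limma adjusted p = 0.176).

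**Figure D4:**
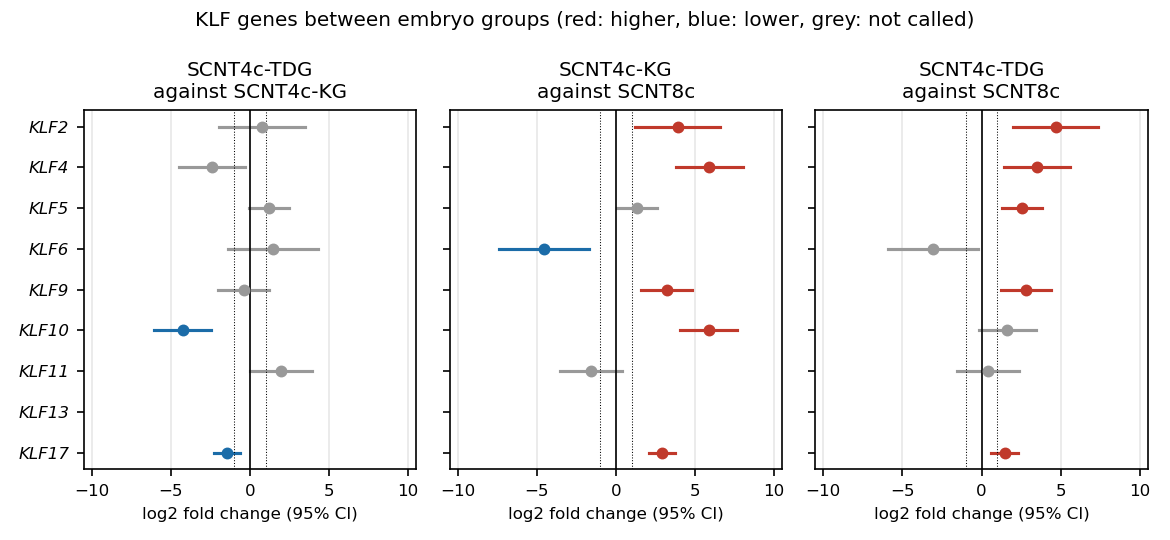
Log2 fold change of each tested KLF gene on the x axis for SCNT4c-TDG against SCNT4c-KG and for each treated group against SCNT8c. Points are limma estimates on log2(value + 1), bars are 95% confidence intervals, and dotted lines mark the 2-fold limit. *KLF10* and *KLF17* are called lower in SCNT4c-TDG than in SCNT4c-KG, and 6 and 5 genes are called in SCNT4c-KG and SCNT4c-TDG against SCNT8c.

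The order of the 5 groups differed between members. *KLF17* ran from SCNT4c-KG over SCNT4c-TDG to SCNT8c and SCNT4c, whose ranges overlapped, and to PFF at 0. *KLF4* ran from PFF over SCNT4c-KG and SCNT4c-TDG to the zeros of SCNT4c and SCNT8c, with no overlap between neighbours above 0. *KLF10* was highest in SCNT4c-KG, followed by PFF and SCNT4c-TDG, which overlapped, and by SCNT8c and SCNT4c, which overlapped too. In *KLF6*, PFF stood above SCNT4c and SCNT8c, which overlapped, and both stood above the overlapping SCNT4c-TDG and SCNT4c-KG by their means, with SCNT8c and SCNT4c-TDG not overlapping. *KLF9* showed overlap between all neighbours, from PFF with a mean of 182 and SCNT4c-KG with 181 to SCNT8c with 17.0.

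*KLF3* stayed near the limit of detection in every group. It had 0, 0 and 4.77 in PFF, 0, 0 and 4.15 in SCNT4c, 16.3, 0 and 0 in SCNT4c-KG, 5.02, 5.37 and 0 in SCNT4c-TDG and 0, 0.831 and 0 in SCNT8c, or 33 reads over the 15 libraries. Its locus of 223340 bases also holds *LOC100510918* and an assembled transcript without gene name. This transcript was at 62.1, 108 and 21.4 in SCNT4c-KG, at 0 to 0.83 in SCNT4c, and at 11.0 to 29.8 in PFF, and whether it belongs to *KLF3* was not tested.

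Some KLF genes outside the 10 members were called as well. In SCNT4c-KG against SCNT4c, 6 of 7 were tested, of which 1 was higher, *KLF8* (log2 fold change 2.46), and 2 were lower, *KLF7* and *KLF1* (-1.90 and -1.92), beside 17.6% and 19.6% of all features. In SCNT4c-TDG, *KLF8* was higher (2.57), and *KLF1*, the erythroid member, and *KLF12*, a CtBP-binding repressor, were lower (-4.86 and -1.51), beside 15.7% of all features higher and 17.6% lower. *KLF1* stood at 171, 141 and 192 in untreated 4-cell embryos and at 0 in all PFF libraries, and it had 60.4, 29.2 and 45.6 in SCNT4c-KG and 1.67, 3.84 and 13.8 in SCNT4c-TDG, with no overlap between the 3 embryo groups. The medians of the 6 were -0.34 and -1.17 in the 2 comparisons.

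SP factors recognise the same GC boxes. Of 9 in the table, 3 had enough reads in the embryos, and *SP3* went in opposite directions, with 585, 642 and 539 in untreated SCNT4c, 203, 231 and 245 after KDM4A and GSK126 (log2 fold change -1.38) and 1070.4, 1395 and 1846 in SCNT4c-TDG (log2 fold change 1.25). The 3 groups did not overlap, and the difference between the treatments was called (log2 fold change 2.63, SE 0.31, limma adjusted p = 9.0e-05). *SP4* was higher in SCNT4c-KG (log2 fold change 2.43). Of the 3, 1 was higher and 1 lower in SCNT4c-KG, beside 17.6% and 19.6% of all features. In SCNT4c-TDG, 1 was higher and 0 lower, beside 15.7% and 17.6%.

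Among 8 KLF corepressors, 4 were tested, of which 1 was higher and 0 lower in SCNT4c-KG, and 1 higher and 1 lower in SCNT4c-TDG. Of all features, 17.6% were higher and 19.6% lower in SCNT4c-KG, and 15.7% and 17.6% in SCNT4c-TDG. *HDAC3*, a histone deacetylase, was higher in both treated groups (log2 fold changes 4.50 and 4.40), from 3.94, 6.99 and 0 in the controls to 58.8, 68.5 and 109.7 in SCNT4c-KG and 103, 44.5 and 77.3 in SCNT4c-TDG, and *HDAC1* was lower in SCNT4c-TDG (-1.38). Of 6 coactivators, 4 were tested, of which 2 were higher and 1 lower in SCNT4c-KG, and 3 higher and 1 lower in SCNT4c-TDG. The acetyltransferase genes *KAT2B* and *EP300* were higher in both groups (3.74 and 3.59 in SCNT4c-KG, 4.66 and 3.96 in SCNT4c-TDG), and *KAT2A* was lower in both (-1.31 and -2.63). Entries such as *SIN3B* and *NCOR1* were at 0 in all embryo libraries, so these lists are read only in part, since an entry at 0 can stand beside a transcript that holds its reads, as for *KLF17*.

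Of 9 ubiquitin ligases that act on KLF proteins, 7 were tested. In SCNT4c-KG, 1 was higher and 1 lower, beside 17.6% and 19.6% of all features. In SCNT4c-TDG, 2 were higher and 1 lower, beside 15.7% and 17.6%. *STUB1* was higher and *SMURF2* lower in both treated groups, with log2 fold changes of 3.27 and -2.06 in SCNT4c-KG and 3.08 and -1.54 in SCNT4c-TDG, and *SIAH1* was higher in SCNT4c-TDG (3.72). *SMURF2* was also lower in SCNT8c (log2 fold change -2.40, limma adjusted p = 0.0249), where 2 libraries had 1259 and 772 and the other 5935. Of 12 inducers of KLF genes, 9 were tested, with 1 higher and 1 lower in SCNT4c-KG and 2 and 2 in SCNT4c-TDG, beside the same shares. In SCNT4c-KG, *NR3C1*, the glucocorticoid receptor, was higher (1.24) and *SMAD4*, the shared effector of TGF-beta signals, lower (-1.51). In SCNT4c-TDG, *TGFBR1*, a TGF-beta receptor, and *SMAD4* were higher (3.21 and 1.21), and 2 were lower, among them *MEF2D* (-2.43).

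The genes most like 3 of the members over the 15 libraries were searched among 9351 known genes with a mean of at least 50, by Pearson's r of the log2 values. For *KLF17* they were *RHEBL1*, *LEUTX* and *LOC102163428*, with r of 0.994, 0.992 and 0.99. *LEUTX*, a homeobox gene of embryonic genome activation, had means of 0 in PFF, 2267 in SCNT4c, 26280 in SCNT4c-KG, 20600 in SCNT4c-TDG and 2904 in SCNT8c. For *KLF4* they were *HNRNPUL1*, *PPP2R1A* and *RBM39*, with r of 0.974, 0.973 and 0.969. For *KLF5* the best r was lower, 0.813 for *DPH3*, 0.809 for *PCF11* and 0.807 for *TTN*. These points share libraries and group means, and r is a description of the pattern only.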

How the data were processed

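RNA was measured in 15 libraries. According to the methods, the authors amplified cDNA with a SMARTer kit, trimmed reads with Trimmomatic 0.39, mapped them with STAR 2.5.3a against Sscrofa11.1, built transcript models in StringTie 2.1.2 and used HTSeq for counting. The deposited values are a normalized signal: read counts that the authors scaled by a library factor. Dividing by the step of each library gave whole reads for 100% of values (tolerance 0.01), called recovered reads. Of 43535 entries, 241 repeated an ID and were removed.

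Columns were matched to samples by name. Numbers of the SCNT4c samples conflict within the labels, and the names of these columns also stand in the descriptions of the SCNT4c-KG samples. The SCNT4c columns were therefore matched to the group only, and are called libraries a, b and c.

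Values were used as log2(value + 1), so fold changes of low genes are understated. The test was limma 3.58.1 with an intensity trend, in R 4.3.3, on features whose mean in the fitted libraries reached 10. The 12 embryo libraries were fitted together, and PFF against SCNT4c in a separate model with 6. Adjusted p-values are Benjamini-Hochberg values over all features, and changed means adjusted p under 0.05 with a fold above 2. An exact two-sided permutation test of 3 against 3 cannot go below p = 0.1. Alternatives were a pseudocount of 0.1 or 10, no minimum or one of 50, quantile normalization, scaling to equal totals, edgeR 4.0.16 and DESeq2 1.42.0 on the recovered reads, other libraries in the fit, no fold limit, reads summed over a locus, each library left out, and the replicate number as a block. The limma test was tested on simulated data. Floors of 3 reads cover counting error only.

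Members and gene lists were chosen with earlier results of these data known. All 10 members are named, and the promoter of 1 is not reported here. Of each list and comparison, at most 3 changed genes with the lowest adjusted p are named. The exception is the fibroblast list in SCNT4c-KG against SCNT4c, where all changed genes are named.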

Additional observations from a re-analysis of the deposited data

How the results depend on the processing

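Over 56 estimates of members, 977 alternative values were computed, of which 898 kept their direction and side of the threshold, 41 lost the call, 24 gained it and 14 changed sign. In SCNT4c-TDG against SCNT4c, 3 members were called by limma, 5 with quantile normalization, 5 with DESeq2, 6 in the fit of these 2 groups, and 2 to 5 when a library was left out, with 5 without SCNT4c library a. Of 18942 features, 6300 were called in the main fit, 7080 with quantile normalization and 6982 with DESeq2. The fit of these 2 groups, where *KLF4* was not tested, called 8882 of 18647, and leaving out a library called 4496 to 5249. In SCNT4c-KG against SCNT4c, leaving out a library gave 3 to 5, beside 5469 to 6252 features. With the assembled transcripts of each locus summed for all members, 6 were called in SCNT4c-KG and 3 in SCNT4c-TDG against SCNT4c, 7 and 6 against SCNT8c, and 9 in PFF against SCNT4c. The features called were 7380 and 6799 of 19813, 5379 and 4722 of 19813, and 15573 of 20119. Where a member was added, it was *KLF3*, which reached the minimum mean only through the transcript at its locus. Whether this transcript belongs to *KLF3* was not tested. Quantile normalization and DESeq2 each called 1 member in SCNT8c against SCNT4c, beside 1280 and 2733 of 18942 features. For SCNT4c-TDG against SCNT4c-KG, 1 was called with the same total in each library, and 1 when any library was left out. The features called were 3193 and 1794 to 2521. For SCNT4c-TDG against SCNT8c, a minimum mean of 50 gave 3, beside 3895 of 10829 features, and *KLF2* and *KLF4* were not tested at it. Leaving out a library gave 2 to 5, beside 3285 to 5533 features.

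No call was attached to an estimate that changed sign. In SCNT4c-KG against SCNT4c, *KLF5* was -0.063 with the same total and -0.54 to 0.44 when a library was left out, and *KLF11* was 0.065 with edgeR, 0.10 with DESeq2 and -1.66 to 0.19 without a library. *KLF6* in SCNT8c against SCNT4c was 0.067 with DESeq2 and -0.85 to 0.40 without a library. Without a library, *KLF2* and *KLF6* in SCNT4c-TDG against SCNT4c-KG were -0.48 to 1.52 and -0.52 to 2.51, and *KLF11* in SCNT4c-TDG against SCNT8c was -0.0095 to 0.79. The cause was not tested.

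Samples with the same number did not deviate together, with correlations of -0.0611 to 0.195, so no pairing was assumed. With the replicate block, in a fit of SCNT4c-KG, SCNT4c-TDG and SCNT8c, the counts were 2 in SCNT4c-TDG against SCNT4c-KG, 6 in SCNT4c-KG against SCNT8c and 5 in SCNT4c-TDG against SCNT8c, and the same in that fit without the block, which was chosen after seeing the data. The block was not fitted with SCNT4c, whose numbering is in conflict. The median of all features moved in SCNT4c-TDG against SCNT4c-KG from -0.02 to 0.32 with the same total, where 2036 features were higher and 1157 lower, beside 1340 and 1730. In PFF against SCNT4c it moved from -0.07 to -0.67 with the same total and to -1.01 with DESeq2, where 6429 and 5941 features were higher and 8558 and 9138 lower. In SCNT8c against SCNT4c, 497 were higher and 599 lower with limma, 669 and 173 with edgeR, 1962 and 771 with DESeq2 and 729 and 551 with quantile normalization. Members with few reads, such as *KLF2*, *KLF3* and *KLF4* in the embryos, are limited by depth.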

Other observations

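Genes that mark cumulus cells, which surround the oocyte, were counted in the same libraries. Of 8 in the table, 4 were tested in the embryos. In SCNT4c-KG against SCNT4c, *STAR* and *AREG* were higher (log2 fold changes 2.98 and 2.01, limma adjusted p = 0.00251 and 0.0244) and *INHBA* was lower (log2 fold change -1.06). Of all features in this comparison, 17.6% were higher and 19.6% lower. In SCNT4c-TDG, 0 of the 4 were higher and 1 lower, *INHBA* (log2 fold change -1.54), beside 15.7% and 17.6% of all features. The summed value of the 8 was 1411 to 1951 in the SCNT4c libraries, 1263 to 1766 in SCNT4c-KG and 628 to 662 in SCNT4c-TDG, and *PTX3* was at 0 in all embryo libraries. Of 7 trophectoderm genes, 1 was tested, and the summed value was at most 56.0 in any embryo library.

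*CYS1*, which shares a locus with *KLF11*, was 785, 791 and 671 in PFF and 101, 45.4 and 5.81 in SCNT4c, and at most 3.34 in SCNT4c-TDG, where *KLF11* had 19.2 to 60.2.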
